A study of Mus musculus with 30 samples.

Results

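The transcriptome of WT brain ECs after 8 days in culture was compared with that of ECs taken directly from the adult mouse brain, with attention to the genes that lie outside the published lists of BBB genes and pan-EC genes. Of the 30 samples in the series, 8 entered the comparison: the 6 RNA-seq libraries labelled as WT cultures and the 2 labelled as GFP-positive cells of the adult brain. The acutely isolated ECs came from adult male Tie2-GFP mice and were sorted by GFP after papain digestion. In these mice regulatory DNA of the receptor gene Tek (Tie2) drives GFP in ECs and also in some blood cells. By the paper, its adult brain EC data combine ECs of the cerebrum with ECs of the cerebellum, the latter published earlier. WT replicates 1 and 2 came from adult male C57BL/6J mice and WT replicates 3 to 6 from adult male mice labelled Ctnnb1flex3/+;Tie2-GFP, a floxed allele of the beta-catenin gene that stayed intact because no Cre was present. By the study's methods the latter mice had been injected with 4-hydroxytamoxifen, the inducer of CreER, as pups. All cultures were purified with puromycin, which ECs survive because they express the efflux pump P-glycoprotein, and were grown on collagen I in a medium with fetal bovine serum, EGF, VEGF, FGF, IGF-1, hydrocortisone and ascorbic acid. Brains of several mice were pooled for each of the 3 culture experiments (replicates 1 and 2, 3 and 4, and 5 and 6), and the 2 replicates of an experiment are separate wells. The p values therefore measure the spread between these libraries, part of which is technical.

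An EC in a brain capillary is a quiescent cell. It lies under flowing blood, is anchored on a basement membrane that it shares with pericytes and astrocyte endfeet, and receives signals from all of these. A cultured EC sits on a stiff surface under still medium that is rich in mitogens, next to other ECs only. Pathways that are known to respond to such conditions include those for mechanical tension (YAP and TEAD), laminar flow (the KLF factors), growth and protein synthesis, and vessel sprouting.

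Transcript abundances are given as CPM, that is, estimated counts scaled to a common library total with a TMM factor that centres the bulk of genes. CPM is not divided by transcript length, so that a value can be compared between libraries for 1 gene but not between genes. The libraries held 55701811 and 94686456 estimated counts in the acutely isolated ECs and 24284843 to 65623544 in the cultures. The acute libraries were sequenced as single reads of 75 cycles, WT replicates 1, 2, 5 and 6 as paired reads of 36 cycles, and WT replicates 3 and 4 at another facility as paired reads of 150 cycles, so read type and culture cannot be told apart. Nuclear protein-coding genes held 32.3% and 40.5% of the deposited TPM in the acute libraries and 35.4% to 45.8% in WT replicates 1, 2, 5 and 6, against 94.3% and 94.2% in WT replicates 3 and 4. Much of the remainder went to single short RNAs, with Mir6236 at 33.8% and 25.0% in the acute libraries and Rn7s1 and Rn7sk together at 42.2% to 48.0% in WT replicates 1, 2, 5 and 6. For this reason TPM is printed only as a share of the total of nuclear protein-coding genes.

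The identity of the cells was checked with marker genes. The 12 endothelial markers held 1.87% and 1.90% of protein-coding TPM in the acute libraries and 0.579% to 1.48% in the cultures. Pecam1 (1529 and 926 CPM acute, 921 to 3090 CPM, median 983 in culture) and Cdh5 (1630 and 1196 CPM acute, 402 to 1695 CPM, median 907 in culture), the adhesion molecules CD31 and VE-cadherin, were not called, and these 2 genes were chosen after their values were seen. Of the 12 markers, 5 were called lower, a number that dropped to 3 without acute replicate 1, acute replicate 2, WT replicate 3 or WT replicate 4. Among them was the VEGF receptor Flt1, which fell by 4.41 ± 0.58 log2 units (SE, adjusted p = 0.000833). Emcn, an endothelial sialomucin, was called higher.

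The acute libraries also held transcripts of cells that touch or fill the vessels. Of 10 pericyte markers, 8 were called lower in culture, and the list held 0.174% and 0.147% of protein-coding TPM in the acute libraries and 0.000695% to 0.00274% in the cultures. Rgs5, a pericyte regulator of G protein signaling, stood at 1895 and 1789 CPM in the acute libraries and at 0.0508 to 4.62 CPM (median 2.27) in the cultures. The secreted protein gene Vtn stood at 322 and 202 CPM and at 0 to 0.903 CPM (median 0.158). The 5 erythrocyte genes held 1.69% and 10.1% in the acute libraries and at most 0.000245% in any culture. Astrocyte markers held 0.145% and 0.0219% against at most 0.00461%, and the neuron list at most 0.00215% in any of the 8 libraries. The microglia and macrophage list held at most 0.00130% in any of them. Fewer cells of a type and less RNA per cell cannot be told apart in such bulk libraries, and the part of these other cells in the results below was not tested. Several genes reported as lower below, such as Sparcl1, Acsl3, Pfkm, Lfng and Sod3, had more protein-coding TPM in GFP-negative brain cells than in the acute ECs. Others, such as Klf4 and Ltbp4, had less. The paper kept only acute-enriched genes over 2-fold higher in GFP-positive than in GFP-negative cells, a filter that was not applied here.

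Of 17128 genes tested, 2103 (12.3%) were called higher in culture and 1426 (8.33%) lower, that is, with an adjusted p under 0.05 in edgeR's quasi-likelihood test, a change over 2-fold and a deposited TPM of at least 5 in every library of the higher group. The median log2 fold change over all of these genes was 0.08, and it became 0.24 when libraries were scaled by their totals alone. After summing the 2 wells of an experiment, so that 3 cultures stood against 2 acute libraries, 1428 were called higher and 830 lower. The gene groups below are read against the 13317 protein-coding genes tested outside the BBB and pan-EC lists, of which 2056 (15.4%) were called higher and 1002 (7.52%) lower, with a median log2 fold change of 0.30. In this background 32.9% of genes were higher and 23.1% lower in every culture than in both acute libraries, so that groups that do not overlap are common. Fold changes followed transcript length. Among the 3333 shortest of these genes, up to 1541 bases, the median log2 fold change was 1.06 and 27.2% were called higher, whereas among the 3327 longest the median was -0.46 and 5.62% were called higher. When transcript length per gene and library entered the fit as an offset, these medians were 0.86 and -0.10. Some groups, such as ribosomal proteins and the proteasome, are therefore given with the length offset as well.

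**Figure D1:**
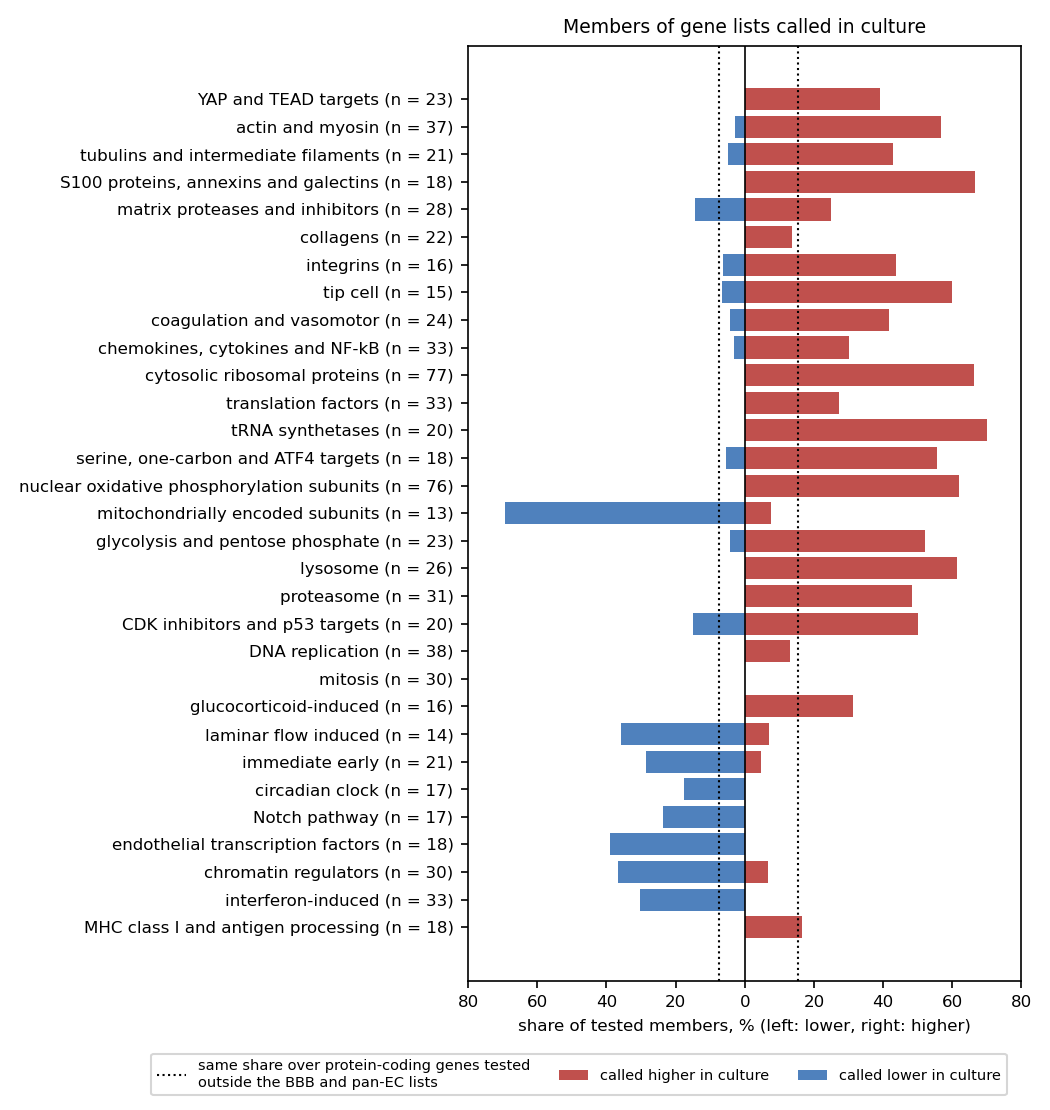
Share of tested members of 31 gene groups that were called higher (red, to the right) or lower (blue, to the left) in the 6 WT cultures against the 2 acute libraries, in percent, with the number of tested members in brackets. Dotted lines mark the 15.4% and 7.52% of the background, and ribosomal proteins, tRNA synthetases, S100 proteins and annexins, nuclear respiratory subunits and lysosomal genes reach furthest past the right line while mitochondrially encoded subunits, chromatin, endothelial transcription factor, flow and interferon genes reach past the left one.

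The genes with the largest shifts in abundance outside those lists included genes of the cell's periphery and skeleton. S100a6, a small calcium-binding protein of motile cells, stood at 1.35 and 1.37 CPM in the acute libraries and at 699.5 to 1257 CPM (median 1081) in the cultures. Its log2 fold change was 9.58 ± 0.59 (SE, adjusted p = 5.16e-05), and the lowest culture lay 511-fold above the higher acute library. Cav1, the main coat protein of caveolae, stood at 603 and 377 CPM and at 3364 to 6067 CPM (median 4996), a log2 change of 3.30 ± 0.54 (SE, adjusted p = 0.00188). Ftl1, the light chain of the iron store ferritin, rose from 306 and 249 CPM to 1409 to 2959 CPM (median 1706), with a log2 change of 2.85 ± 0.51 (SE, adjusted p = 0.00289). Other genes with 5 TPM or more in all 8 libraries that rose were Litaf, a regulator of endosomal sorting (log2 fold change 5.55 ± 0.69), Esd, an esterase (5.37 ± 0.42), the DNA repair gene Ercc1 (5.55 ± 0.51) and the cytokine gene Mif (5.32 ± 0.91). For each of these genes all 6 cultures lay above both acute libraries.

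In the other direction, Golim4, a Golgi membrane protein, stood at 952 and 1412 CPM in the acute libraries and at 30.1 to 79.7 CPM (median 49.9) in the cultures (log2 fold change -4.46 ± 0.41 SE, adjusted p = 0.000201). Lmo2, a LIM protein of endothelial and blood cell transcription complexes, stood at 359 and 375 CPM and at 15.6 to 36.1 CPM (median 30.7, log2 fold change -3.74 ± 0.36 SE, adjusted p = 0.00023). App, the amyloid precursor protein, fell from 2968 and 2363 CPM to 348 to 770.5 CPM (median 642), a log2 change of -2.21 ± 0.37 (SE, adjusted p = 0.00216). The general transcription factor Gtf2i (-3.68 ± 0.43), the nuclear body protein Sp100 (-3.60 ± 0.29), the serum response cofactor Elk4 (-2.63 ± 0.46) and the repressor Klf3 (-2.24 ± 0.33) fell as well, and the groups did not overlap for any of the 7 genes.

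Some targets of YAP and TEAD, the factors that enter the nucleus in spread cells under tension, were higher in culture. Of 23 targets tested, 9 were called higher and 0 lower, and their median log2 fold change was 2.59. Without the TPM minimum the test passed 12 higher and 2 lower. Ccn2, a secreted matricellular protein also known as CTGF, stood at 90.2 and 30.3 CPM in the acute libraries and at 2212 to 7322 CPM (median 5378) in the cultures. Ccn1, its relative CYR61, stood at 91.2 and 144 CPM and at 1458 to 2918 CPM (median 1751). The lowest culture was 24.5-fold above the higher acute library for Ccn2 and 10.1-fold for Ccn1, and the log2 fold changes were 6.36 ± 0.95 (SE, adjusted p = 0.00136) for Ccn2 and 4.13 ± 0.55 (SE, adjusted p = 0.000898) for Ccn1. Ajuba, a LIM protein that restrains the LATS kinases upstream of YAP and that was chosen after its values were seen, stood at 8.15 and 7.35 CPM and at 59.3 to 112 CPM (median 102), with a log2 change of 3.56 ± 0.40 (SE, adjusted p = 0.000449). Amotl2, which binds YAP in the cytoplasm, was the most abundant target that was not called (129.5 and 135 CPM acute, 132 to 473 CPM, median 356 in culture). Amotl2 was called without WT replicate 4 (adjusted p = 0.0359). Its log2 fold change was 1.23 in the main fit and -0.0991 with the length offset.

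The TEAD motif GGAATG, searched on both strands in the 250 bases before the RefSeq start of each gene on GRCm38.p6, was found for 7 of the 16 targets with a promoter entry (43.8%) and in 12.6% of all 27025 promoters. The promoters of Ccn1 and Ajuba are shown because they carry the motif in this window, which is in capitals (CATTCC is its reverse complement). That of Ccn1 lies on the minus strand at chr3:145649986-145650235 and that of Ajuba on the minus strand at chr14:54577662-54577911. A match is a description of the letters and not a site of binding.
Ccn1: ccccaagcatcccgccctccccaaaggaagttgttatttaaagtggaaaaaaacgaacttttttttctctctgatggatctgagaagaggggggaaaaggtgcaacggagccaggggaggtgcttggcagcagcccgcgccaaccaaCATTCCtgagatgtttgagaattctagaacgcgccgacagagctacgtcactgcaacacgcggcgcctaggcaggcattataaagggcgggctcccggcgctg
Ajuba: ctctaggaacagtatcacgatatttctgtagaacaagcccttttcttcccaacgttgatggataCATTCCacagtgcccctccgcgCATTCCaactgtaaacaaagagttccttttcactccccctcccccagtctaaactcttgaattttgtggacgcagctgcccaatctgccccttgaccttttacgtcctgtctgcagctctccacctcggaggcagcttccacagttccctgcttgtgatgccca

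The cytoskeleton itself showed the same direction. Of 37 genes for actin, myosin and their binding proteins, 21 were called higher, against 1 lower, with a median log2 fold change of 2.02. The list took 3.25% and 2.31% of protein-coding TPM in the acute libraries and 3.63% to 7.94% in the cultures (exact permutation test over the 8 libraries, two-sided p = 0.0714, adjusted over 12 such shares 0.122, where the smallest p that 2 against 6 libraries allow is 0.0357). The cultures are 3 pairs of wells, and with the wells of each experiment averaged, an alternative chosen after seeing the data, the smallest exact p that 3 experiments against 2 libraries allow is 0.1, so that no share can pass. The number of calls depended on the acute replicates, with 12 without replicate 1 and 6 without replicate 2, and was 13 with the length offset. Myl6, a myosin light chain, stood at 523 and 382 CPM in the acute libraries and at 1347 to 2380 CPM (median 1525) in the cultures (log2 fold change 1.96 ± 0.44 SE, adjusted p = 0.00776). Actb, cytoplasmic beta-actin, stood at 2710 and 1494 CPM and at 6528 to 23610 CPM (median 13950), and its log2 fold change was 2.80 ± 0.81 (SE, adjusted p = 0.0212). Tagln, the contractile-cell protein transgelin, had a log2 change of 5.64 ± 1.25 (SE, adjusted p = 0.00722). Its level was 46.8 and 33.5 CPM in the acute libraries and 509.6 to 4412 CPM (median 1028) in the cultures. Myh10, a nonmuscle myosin heavy chain, fell by 2.08 ± 0.54 log2 units (SE, adjusted p = 0.0138), and its relative Myh9 was not called and stood at 3318 and 2105 CPM in the acute libraries and at 256 to 2908 CPM (median 2279) in culture, with an adjusted p of 0.591. Myl6 and Tagln were not called without acute replicate 2 (adjusted p = 0.0556 and 0.0608). Actb was not called without acute replicate 1 or acute replicate 2 (adjusted p = 0.0666 and 0.124). Myh10 was not called without acute replicate 1 (adjusted p = 0.099). With the length offset Actb was not called (adjusted p = 0.217), and the log2 fold change of Myh9 went from -0.61 to -3.00. As a share of protein-coding TPM, Myh9 was lower in every culture than in both acute libraries.

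Smooth muscle markers stood beside these values. Of 6, the genes Acta2, Cnn1 and Tagln were called higher in culture, a count that was 1 without acute replicate 1 and 0 without acute replicate 2, while Myh11, the smooth muscle myosin heavy chain, fell from 374 and 257 CPM to 1.6 to 37.2 CPM (median 10.5), with a log2 change of -4.27 ± 0.90 (SE, adjusted p = 0.00592). Of the tubulins and intermediate filaments, 9 of 21 were called higher (5 without acute replicate 2) and 1 lower. Tubb6, a beta-tubulin, stood at 40.3 and 10.4 CPM in the acute libraries and at 385 to 1382 CPM (median 1031) in culture, a log2 change of 5.21 ± 0.90 (SE, adjusted p = 0.00244). The lowest culture stood 9.57-fold above the higher acute library. The lower gene was Map4, which stabilizes microtubules (1017 and 689 CPM acute, 194 to 266 CPM, median 228 in culture, log2 fold change -1.88 ± 0.27 SE, adjusted p = 0.00116). Acta2 was not called without acute replicate 1 or acute replicate 2 (adjusted p = 0.071 and 0.104). Cnn1 was not called without acute replicate 1 or acute replicate 2 (adjusted p = 0.0617 and 0.0683). Tagln was not called without acute replicate 2 (adjusted p = 0.0608). With the length offset Acta2 was not called (adjusted p = 0.0713).

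S100 proteins, annexins and galectins, which bind calcium, membranes or sugars at the cell edge, formed 1 of the groups with the highest share of calls. Of 18 tested, 12 were called higher (7 without acute replicate 2) and 0 lower, with a median of 1.97. They took 0.258% and 0.202% of protein-coding TPM in the acute libraries and 0.954% to 1.98% in the cultures (exact permutation test, two-sided p = 0.0357, the smallest possible, and 0.107 after adjustment over 12 shares, and 0.10 with wells averaged). Anxa2, a membrane scaffold that assembles plasmin at the cell surface, stood at 55.6 and 49.3 CPM and at 1137 to 2240 CPM (median 2088) in culture. Its log2 fold change was 5.12 ± 0.57 (SE, adjusted p = 0.000423), and the groups were 20.5-fold apart at their nearest libraries. Anxa5, a phosphatidylserine binder, was not called (359.7 and 249.8 CPM acute, 476 to 924 CPM, median 579.5 in culture, adjusted p = 0.0515). Anxa5 was called without WT replicate 5 (adjusted p = 0.0475).

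**Figure D2:**
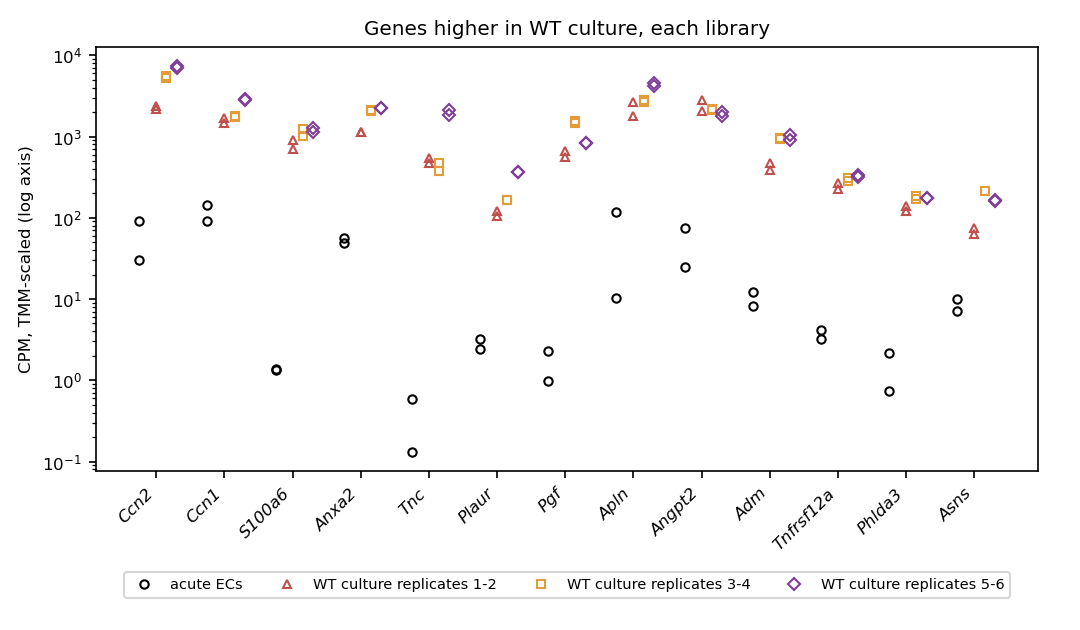
CPM (TMM-scaled, log axis) of 13 genes that were called higher, 1 point per library, with the 2 acute libraries as black circles and the wells of the 3 culture experiments as triangles (replicates 1 and 2), squares (3 and 4) and diamonds (5 and 6). All 6 cultures lie above both acute libraries for each gene, and S100a6 shows one of the widest gaps, with cultures at 699.5 to 1257 CPM against 1.35 and 1.37.

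The matrix that the cells produce was not uniformly higher. Collagens are the main fibres and sheets of the matrix, and of 22 tested, 3 were called higher (13.6%) and 0 lower, against 15.4% and 7.52% in the background. Col5a2, a chain of fibrillar collagen V, stood at 4.42 and 6.87 CPM in the acute libraries and at 105 to 1178 CPM (median 918) in culture, a log2 change of 6.98 ± 1.37 (SE, adjusted p = 0.00424). Col18a1, the precursor of endostatin in basement membranes, stood at 27.3 and 43.7 CPM and at 288 to 1135 CPM (median 555, log2 fold change 4.17 ± 0.75 SE, adjusted p = 0.00285). Both were higher in every culture than in either acute library. Col4a1, the main basement membrane collagen of vessels, was not called, with 2648 and 1262 CPM acute and 1260 to 8242 CPM (median 3409) in culture. Its log2 fold change was 1.10, and -0.686 with the length offset. Enzymes that modify collagen had 8 calls higher among 16 tested (4 without acute replicate 2), among them Serpinh1, the collagen chaperone HSP47 (353 and 198 CPM acute, 722 to 1105 CPM, median 902 in culture, log2 fold change 1.70 ± 0.38 SE, adjusted p = 0.00768). Serpinh1 was not called without acute replicate 2 (adjusted p = 0.0509).

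Among 35 basement membrane and matricellular genes, 6 were called higher (17.1%, fewer without acute replicate 2) and 3 lower (8.57%). These shares were close to the 15.4% and 7.52% of the background. Tnc, tenascin C, a glycoprotein of wounds and developing tissue, was close to absent in the acute libraries, at 0.131 and 0.59 CPM, and stood at 372 to 2093 CPM (median 509.7) in culture (log2 fold change 11.40 ± 1.56 SE, adjusted p = 0.000967). Agrn, a heparan sulfate proteoglycan of the vascular basement membrane, went the other way, from 998 and 472 CPM to 23.3 to 106 CPM (median 47.5), with a log2 change of -3.72 ± 0.54 (SE, adjusted p = 0.00118). The elastic fibre gene Eln and the matricellular gene Sparcl1 were called lower too (log2 fold changes -4.98 ± 1.07 and -3.56 ± 0.97). The other large basement membrane proteoglycan, Hspg2 (perlecan), was not called, at 710.5 and 293 CPM acute and 140.2 to 1483 CPM (median 754) in culture, and its value fell to -1.88 with WT replicates 3 and 4 as the only cultures. Eln was not called without acute replicate 1 (adjusted p = 0.060). Sparcl1 was not called without acute replicate 1 or acute replicate 2 (adjusted p = 0.0539 and 0.0734).

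Proteases that cut the matrix, and their inhibitors, moved in both directions. The 28 proteases and inhibitors had a median log2 fold change of 2.93, with 7 called higher (4 without either acute replicate) and 4 lower (2 without acute replicate 1). Plaur, the receptor that concentrates urokinase at the cell surface, stood at 3.2 and 2.41 CPM in the acute libraries and at 106 to 368 CPM (median 166) in culture (log2 fold change 6.26 ± 0.80 SE, adjusted p = 0.000723). Timp1, an inhibitor of metalloproteinases, stood at 0.366 and 0.139 CPM and at 32.3 to 176 CPM (median 65.7, log2 fold change 8.42 ± 1.15 SE, adjusted p = 0.000974). Timp3, which binds the matrix and blocks VEGF signaling, was called lower (1143 and 1274 CPM acute, 425 to 635 CPM, median 472 in culture, log2 fold change -1.31 ± 0.28 SE, adjusted p = 0.0066). Of 16 integrins, 7 were called higher, 3 without either acute replicate, and 1 lower. The beta chain Itgb1 had a log2 change of 1.67 ± 0.52 (SE, adjusted p = 0.0286). The alpha chain Itga1 was the lower one, at -2.01 ± 0.57. Itgb1 was not called without acute replicate 1 or acute replicate 2 (adjusted p = 0.0537 and 0.156). Itga1 was not called without acute replicate 1 or acute replicate 2 (adjusted p = 0.127 and 0.0548). With the length offset Itga1 was not called (adjusted p = 0.13).

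Genes of coagulation and vasomotor control, by which the endothelium keeps blood fluid and sets vessel tone, had 10 members of 24 called higher and 1 lower, with a median of 2.20. The thrombin receptor F2r (PAR1) stood at 94.3 and 59.8 CPM in the acute libraries and at 282 to 628 CPM (median 548) in culture. Procr, the protein C receptor, which opposes clotting, stood at 14.1 and 23 CPM and at 209 to 333 CPM (median 239.5). The groups did not overlap for either gene, and the log2 fold changes were 2.64 ± 0.49 (SE, adjusted p = 0.00334) and 3.81 ± 0.41 (SE, adjusted p = 0.000343). The call in the other direction was Gucy1b1, a subunit of the nitric oxide receptor that pericytes and smooth muscle also express, at 43.4 and 44.4 CPM and 0.693 to 7.44 CPM (median 2.75, log2 fold change -3.59 ± 0.78 SE, adjusted p = 0.00662).

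Of 33 chemokine, cytokine and NF-kB genes, 10 were called higher and 1 lower, the interleukin 1 receptor gene Il1r1 (log2 fold change -1.56 ± 0.41). Tnfrsf12a, the receptor Fn14 for the cytokine TWEAK, stood at 3.22 and 4.21 CPM in the acute libraries and at 226 to 333 CPM (median 295) in culture. The cultures were close to each other, the lowest being 53.5-fold above the higher acute library, and the log2 fold change was 6.28 ± 0.41 (SE, adjusted p = 5.67e-05). Ptgs2, the inducible cyclooxygenase, stood at 65.1 and 14.4 CPM and at 286 to 2327 CPM (median 669, log2 fold change 4.79 ± 1.28 SE, adjusted p = 0.0157). Vcam1, the leukocyte adhesion molecule, ranged widely in culture, from 109 to 1353 CPM against 191 and 118, and was not called (adjusted p = 0.117). Il1r1 was not called without acute replicate 1 (adjusted p = 0.191). Ptgs2 was not called without acute replicate 2 (adjusted p = 0.0975). With the length offset Il1r1 was not called (adjusted p = 0.271).

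Genes of tip cells, the ECs that lead a growing sprout, were among the groups with the highest medians. Of 15 tested, 9 were called higher (5 without acute replicate 2) and 1 lower, with a median log2 fold change of 2.90 (4.65 without acute replicate 1). Apln, the apelin peptide, stood at 119 and 10.2 CPM in the acute libraries and at 1773 to 4547 CPM (median 2742) in culture (log2 fold change 5.58 ± 1.09 SE, adjusted p = 0.00416). Its receptor moved the other way, and Aplnr, at 195 and 43.6 CPM acute, was at 0.025 to 0.305 CPM (median 0.111) in culture, with a log2 change of -9.69 ± 0.75 (SE, adjusted p = 0.000103). In every library of cultured cells the ligand was above and the receptor below its acute values.

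Angpt2, the ligand that loosens vessels by competing for the receptor Tie2, stood at 75 and 25.1 CPM and at 1781 to 2825 CPM (median 2087) in culture (log2 fold change 5.43 ± 0.64 SE, adjusted p = 0.00053). Pgf, a VEGF family ligand of Flt1, stood at 2.26 and 0.988 CPM and at 565 to 1574 CPM (median 829), and its log2 fold change was 9.25 ± 0.88 (SE, adjusted p = 0.000222). Adm, the vasodilator adrenomedullin, stood at 8.16 and 12.2 CPM and at 389 to 1050 CPM (median 923), with a log2 change of 6.27 ± 0.68 (SE, adjusted p = 0.000366). At their nearest libraries the groups were 23.7-fold apart for Angpt2, 249.7-fold for Pgf and 31.9-fold for Adm. Rgcc, a regulator of the cell cycle that tip cell lists include, was called lower (60.4 and 25.9 CPM acute, 1.25 to 8.23 CPM, median 5.98 in culture, log2 fold change -3.11 ± 0.67 SE, adjusted p = 0.00629). In the background 15.4% of genes were called higher and 7.52% lower. Among 32 growth factors and receptors outside the study's lists, 5 were called higher (15.6%), and fewer without either acute replicate. Of these 32, 1 was called lower (3.13%), and more were without acute replicate 2. The lower one was the insulin receptor Insr, which fell by 2.42 ± 0.58 log2 units (SE, adjusted p = 0.0102), while Pdgfb, the ligand that recruits pericytes, was not called (278 and 178 CPM acute, 134 to 485 CPM, median 308 in culture). Rgcc and Insr were not called without acute replicate 1 (adjusted p = 0.0731 and 0.0755).

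Hypoxia-induced genes overlap with this group through Adm. Of 15 tested, 7 were called higher and 1 lower. Bnip3, a receptor for the removal of mitochondria, stood at 12.5 and 23.3 CPM in the acute libraries and at 101 to 173 CPM (median 105) in culture (log2 fold change 2.80 ± 0.43 SE, adjusted p = 0.00153). Mxi1, an antagonist of MYC, stood at 68.1 and 75.8 CPM and at 9.2 to 20.2 CPM (median 18.4), and its log2 fold change was -2.13 ± 0.31 (SE, adjusted p = 0.00115). The groups did not overlap for either gene.

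Many genes for the proteins of the ribosome were higher in culture. Of 77 cytosolic ribosomal proteins tested, 51 were called higher and 0 lower, with a median log2 fold change of 1.91 (1.81 with the length offset). The count was 33 without acute replicate 1 and 27 without acute replicate 2. They took 3.56% and 3.39% of protein-coding TPM in the acute libraries, 11.4% to 11.8% in WT replicates 1, 2, 5 and 6, and 5.89% and 6.55% in WT replicates 3 and 4 (exact permutation test, two-sided p = 0.0357, adjusted 0.107, and 0.20 with wells averaged). Rpl32, of the large subunit, stood at 85.5 and 76.7 CPM and at 202 to 549 CPM (median 507) in culture (log2 fold change 2.40 ± 0.51 SE, adjusted p = 0.0062). Rps29, of the small subunit, stood at 16.4 and 7.42 CPM and at 167 to 376 CPM (median 275, log2 fold change 4.53 ± 0.56 SE, adjusted p = 0.000665). Both were higher in every culture. Ribosomal protein genes have many near-identical pseudogenes that can share reads, so single genes of the group are uncertain. When 288 named pseudogenes were added to 78 genes, the sum was 10893 and 9543 CPM in the acute libraries and 14533 to 36397 in the cultures.

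**Figure D3:**
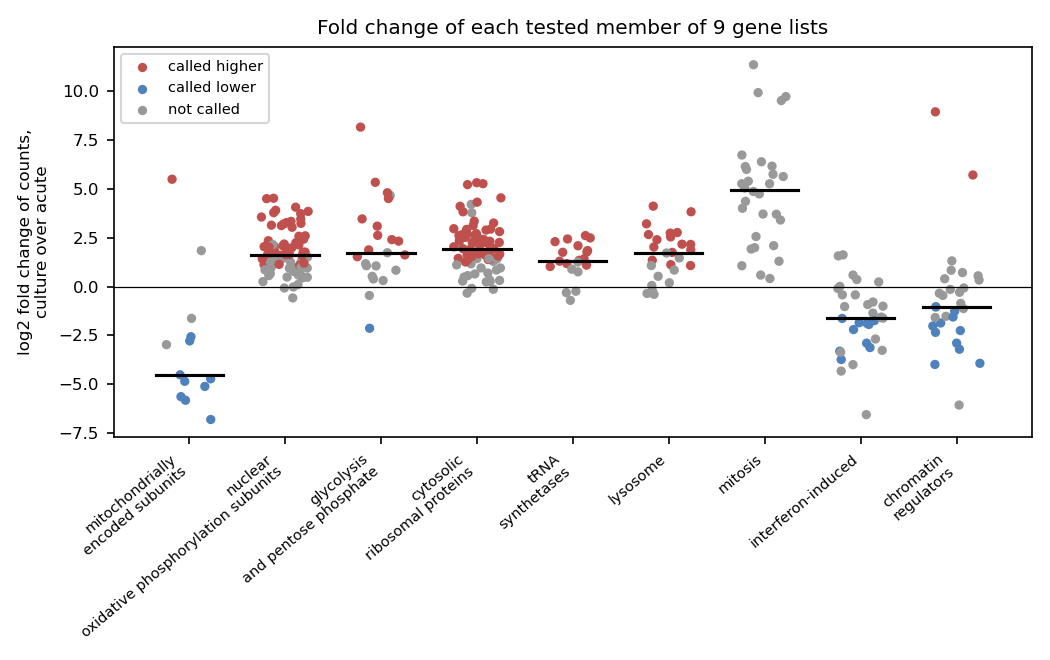
Log2 fold change of counts (culture over acute) of each tested member of 9 gene groups, with members called higher in red, called lower in blue and not called in gray, and a black bar at the median. Mitochondrially encoded subunits lie mostly below 0 while 73 of 76 nuclear subunits of the same complexes lie above it, and all 30 mitotic genes lie above 0 but none was called.

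Of 30 genes that build ribosomes in the nucleolus, 8 were called higher and 1 lower, with a median of 1.24, but with the length offset these values were 6, 6 and 0.49. They took 0.270% and 0.172% of protein-coding TPM in the acute libraries and 0.121% to 0.194% in the cultures, and these ranges overlapped. Translation factors had 9 of 33 called higher and 0 lower, but the median was 0.84 (0.29 with the length offset) and 5 were called with that offset. Of the 20 tRNA synthetases, which load amino acids on tRNA, 14 were called higher and 0 lower, with 9 without acute replicate 2 and 5 with the length offset. Gars, the glycine enzyme, stood at 54.5 and 54.9 CPM in the acute libraries and at 325 to 342 CPM (median 332) in culture (log2 fold change 2.60 ± 0.29 SE, adjusted p = 0.000387). Rars, the arginine enzyme, stood at 54.2 and 37.9 CPM and at 199 to 329 CPM (median 216), a log2 change of 2.43 ± 0.38 (SE, adjusted p = 0.00165). Sars, the serine enzyme, had a log2 change of 1.77 ± 0.38 (SE, adjusted p = 0.00618). All 6 cultures lay above both acute libraries for these 3 genes, whereas Qars, the glutamine enzyme, was not called, at 34.8 and 68.6 CPM acute and 29.2 to 56.9 CPM (median 43.6) in culture.

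Synthetases are also targets of ATF4, the factor that answers a shortage of amino acids. Of 18 genes for serine and one-carbon synthesis and other ATF4 targets, 10 were called higher (6 without acute replicate 1) and 1 lower, with a median of 1.92. Asns, asparagine synthetase, stood at 9.94 and 7.2 CPM in the acute libraries and at 63.2 to 215 CPM (median 163) in culture (log2 fold change 4.11 ± 0.66 SE, adjusted p = 0.00173). Phgdh, the entry enzyme of serine synthesis, stood at 0.85 and 0 CPM and at 40.1 to 216 CPM (median 48.6), a log2 change of 7.81 ± 1.82 (SE, adjusted p = 0.00885). Chac1, which degrades glutathione and was chosen after its values were seen, stood at 0.327 and 0.121 CPM and at 10.5 to 21.3 CPM (median 14.9, log2 fold change 6.06 ± 0.64 SE, adjusted p = 0.000332). All 3 were close to absent or low in the acute libraries and higher in every culture. Ddit4, an inhibitor of mTORC1 that glucocorticoids and stress induce, fell instead, from 106 and 67.8 CPM to 7.35 to 16.9 CPM (median 10.3, log2 fold change -2.98 ± 0.33 SE, adjusted p = 0.000397). One form of the element that ATF4 binds is TGATGNAA, which was found on either strand in the 250 bases before the start of 6 of 19 genes of this group (31.6%) and of 3.53% of all promoters. The window of Asns, on the minus strand at chr6:7693210-7693459, and that of Chac1, on the plus strand at chr2:119350992-119351241, are shown for their match in capitals, which in Chac1 is the reverse complement.
Asns: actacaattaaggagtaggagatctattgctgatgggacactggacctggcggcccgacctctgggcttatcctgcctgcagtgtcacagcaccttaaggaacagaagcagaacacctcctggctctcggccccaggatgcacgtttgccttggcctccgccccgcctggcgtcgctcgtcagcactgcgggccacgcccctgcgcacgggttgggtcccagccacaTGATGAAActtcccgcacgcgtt
Chac1: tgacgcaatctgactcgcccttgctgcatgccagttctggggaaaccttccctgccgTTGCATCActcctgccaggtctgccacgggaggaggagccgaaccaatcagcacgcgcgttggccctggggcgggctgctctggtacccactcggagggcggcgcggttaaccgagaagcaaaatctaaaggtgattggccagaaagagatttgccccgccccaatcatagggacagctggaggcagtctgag

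Subunits of the respiratory chain moved in opposite directions by the genome that encodes them. Of 13 subunits encoded in mitochondrial DNA, 9 were called lower and 1 higher, with a median log2 fold change of -4.51. Of 76 subunits of the same complexes encoded in the nucleus, 47 were called higher and 0 lower, with a median of 1.63 (1.67 with the length offset). mt-Nd2, of complex I, stood at 6432 and 6021 CPM in the acute libraries and at 35.6 to 87.3 CPM (median 45.9) in culture (log2 fold change -6.80 ± 0.43 SE, adjusted p = 5.17e-05). mt-Cytb, of complex III, stood at 7017 and 6010 CPM and at 126 to 343 CPM (median 211), a log2 change of -4.85 ± 0.43 (SE, adjusted p = 0.000176). Neither overlapped. mt-Co1, of complex IV, was not called, and its cultures ranged from 1472 to 9121 CPM against 15520 and 11920. The nuclear complex IV subunit Cox8a stood at 21.2 and 24.1 CPM in the acute libraries and at 148 to 289 CPM (median 168) in culture (log2 fold change 3.12 ± 0.42 SE, adjusted p = 0.000951). Mitochondrial genes took 10.6% and 11.2% of all counts in the acute libraries and 0.667% to 1.58% in the cultures. The nuclear subunits took 1.41% and 1.55% and 2.71% to 4.54% of protein-coding TPM (exact permutation test, two-sided p = 0.0714, adjusted 0.122), and library chemistry, which differed with the read type, was not tested for its part in the mitochondrial values.

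Glycolysis, the main source of energy in growing ECs, had 12 of 23 genes called higher and 1 lower, with a median of 1.73 (1.84 with the length offset). The group took 0.347% and 0.277% of protein-coding TPM in the acute libraries and 0.889% to 1.88% in the cultures (exact permutation test, two-sided p = 0.0357, adjusted 0.107, and 0.20 with wells averaged). Pgk1, which yields ATP, stood at 39 and 31.2 CPM and at 692 to 2613 CPM (median 926) in culture (log2 fold change 5.33 ± 0.89 SE, adjusted p = 0.00211). Aldoa, which splits fructose bisphosphate, stood at 159 and 157 CPM and at 815 to 1785 CPM (median 1402), a log2 change of 3.09 ± 0.50 (SE, adjusted p = 0.00187). Gapdh stood at 126 and 31.4 CPM and at 758 to 3647 CPM (median 2146, log2 fold change 4.79 ± 1.03 SE, adjusted p = 0.00623), and the sum with its named pseudogenes gave 126 and 31.5 CPM against 758 to 3647. The muscle form of phosphofructokinase, Pfkm, fell by 2.13 ± 0.48 log2 units (SE, adjusted p = 0.00733). TCA cycle genes had 5 of 17 called higher (2 without acute replicate 2, 3 with the length offset) and 2 lower. Pfkm was not called without acute replicate 1, with the wells of each experiment summed, or with the cultures of any 1 experiment alone.

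Many genes of protein degradation were higher too. Lysosomal genes had 16 of 26 called higher and 0 lower (median 1.73), and took 0.243% and 0.276% of protein-coding TPM in the acute libraries and 0.571% to 0.87% in the cultures (exact permutation test, two-sided p = 0.0357, adjusted 0.107, and 0.10 with wells averaged). The protease Ctsd stood at 42.9 and 66 CPM and at 536 to 994 CPM (median 818) in culture (log2 fold change 3.82 ± 0.47 SE, adjusted p = 0.000614). Lamp1, the main membrane protein of lysosomes, stood at 117 and 137 CPM and at 767 to 953 CPM (median 805), a log2 change of 2.73 ± 0.34 (SE, adjusted p = 0.000687). Psap, the sphingolipid activator, was not called, at 598 and 557 CPM acute and 387 to 771 CPM (median 632) in culture. Of 31 proteasome subunits, 15 were called higher and 0 lower (median 1.07), or 10 and 0 with the length offset (median 0.66), for example the core subunits Psma3 (log2 fold change 3.34 ± 0.63 SE, adjusted p = 0.00348) and Psmb3 (3.0 ± 0.58 SE, adjusted p = 0.00394).

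Chaperones gave a mixed picture. Of 22 cytosolic chaperones, 7 were called higher and 2 lower, but with the length offset 3 were higher and 4 lower. The stress-inducible Hspa1b, which shares reads with its near copy Hspa1a, stood at 74.1 and 763 CPM in the acute libraries and at 3.87 to 8.0 CPM (median 5.38) in culture (log2 fold change -6.19 ± 0.67 SE, adjusted p = 0.000363). Of 23 targets of NRF2 and metallothioneins, 9 were called higher and 1 lower. Prdx1, a peroxidase, had a log2 change of 2.08 ± 0.59 (SE, adjusted p = 0.0202), and the extracellular dismutase Sod3 stood at 48.5 and 33.2 CPM in the acute libraries and at 0.125 to 3.39 CPM (median 0.19) in culture (-5.10 ± 1.24 SE, adjusted p = 0.0104). Prdx1 was not called without acute replicate 1 or acute replicate 2 (adjusted p = 0.0599 and 0.126).

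Many genes of cell division were higher in culture. Of 30 mitotic genes, 22 had an adjusted p under 0.05 in edgeR's test and were higher, against 26.4% of background genes, and the median log2 fold change was 4.95. None of the 30 was called. Those 22 lacked a deposited TPM of 5 in every culture, and the others did not reach an adjusted p under 0.05. Reaching that TPM minimum also depends on the short RNAs that took much of the deposited TPM in WT replicates 1, 2, 5 and 6. Without that minimum 22 were called, and 6 with TPM rescaled to nuclear protein-coding genes, an alternative chosen after seeing the data. Cdk1, the kinase that starts mitosis, stood at 0.327 and 0.243 CPM in the acute libraries and at 4.99 to 31.8 CPM (median 24.8) in culture (log2 fold change 6.13 ± 1.05 SE, adjusted p = 0.00234). Top2a, the topoisomerase that untangles sister chromatids, stood at 0.366 and 0.954 CPM and at 13.8 to 83.5 CPM (median 14.4), a log2 change of 5.74 ± 1.27 (SE, adjusted p = 0.00704). Both genes were chosen after their values were seen, and neither overlapped. The mitotic list took 0.00348% and 0.00788% of protein-coding TPM in the acute libraries and 0.0472% to 0.0553% in WT replicates 1 to 4, but 0.0101% and 0.00960% in WT replicates 5 and 6 (exact permutation test, two-sided p = 0.0714, adjusted 0.122).

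Of 38 genes of DNA replication, 5 were called higher (13.2%, against 15.4% in the background, and fewer without acute replicate 1) and 0 lower. With TPM rescaled to nuclear protein-coding genes 15 were called higher, and 26 when no TPM minimum was set. Mcm6, of the replicative helicase, stood at 3.33 and 6.4 CPM in the acute libraries and at 36.5 to 86 CPM (median 50.7) in culture (log2 fold change 3.54 ± 0.54 SE, adjusted p = 0.00144). Orc6, of the origin recognition complex, stood at 3.19 and 4.79 CPM and at 13.5 to 32 CPM (median 19.5), a log2 change of 2.42 ± 0.48 (SE, adjusted p = 0.00425). Pcna, the sliding clamp, was not called (73.3 and 74.6 CPM acute, 42.1 to 129 CPM, median 70.3 in culture). Histone genes that are tied to replication are near-identical copies and lack poly(A) tails, and their median log2 fold change was 6.29 over 63 tested but 0.34 with WT replicates 3 and 4 as the only cultures. Enzymes of nucleotide synthesis had 8 of 20 called higher and 0 lower, for example Ctps, CTP synthase, at 11.4 and 11.9 CPM acute and 360 to 479.7 CPM (median 432) in culture (log2 fold change 5.19 ± 0.37 SE, adjusted p = 7.74e-05).

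Genes that stop the cycle changed in both directions. Of 20 CDK inhibitors and p53 targets, 10 were called higher and 3 lower, and 1 was lower without either acute replicate. Cdkn1c, the inhibitor p57 of quiescent cells, stood at 233 and 54.9 CPM in the acute libraries and at 3.06 to 4.93 CPM (median 3.94) in culture (log2 fold change -5.22 ± 0.44 SE, adjusted p = 0.000148). The p53 target Phlda3, which restrains AKT, stood at 2.16 and 0.728 CPM and at 121 to 187 CPM (median 172), a log2 change of 6.79 ± 0.60 (SE, adjusted p = 0.000176). Ccng1, another p53 target, stood at 34.4 and 32.2 CPM and at 444 to 631 CPM (median 496, log2 fold change 3.96 ± 0.37 SE, adjusted p = 0.000206), and the death effector Bax had a log2 change of 4.10 ± 0.54 (SE, adjusted p = 0.000803). The groups did not overlap for these 4 genes. Gdf15, a stress hormone chosen after its values were seen, had 0 counts in both acute libraries and 16.1 to 44.7 CPM (median 23.3) in culture, which made it at least 1135-fold higher with a floor of 3 counts over both acute libraries. Cdkn1a, the inhibitor p21, ranged from 46.8 to 623 CPM in culture against 132 and 67.3 and was not called (adjusted p = 0.175).

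**Figure D4:**
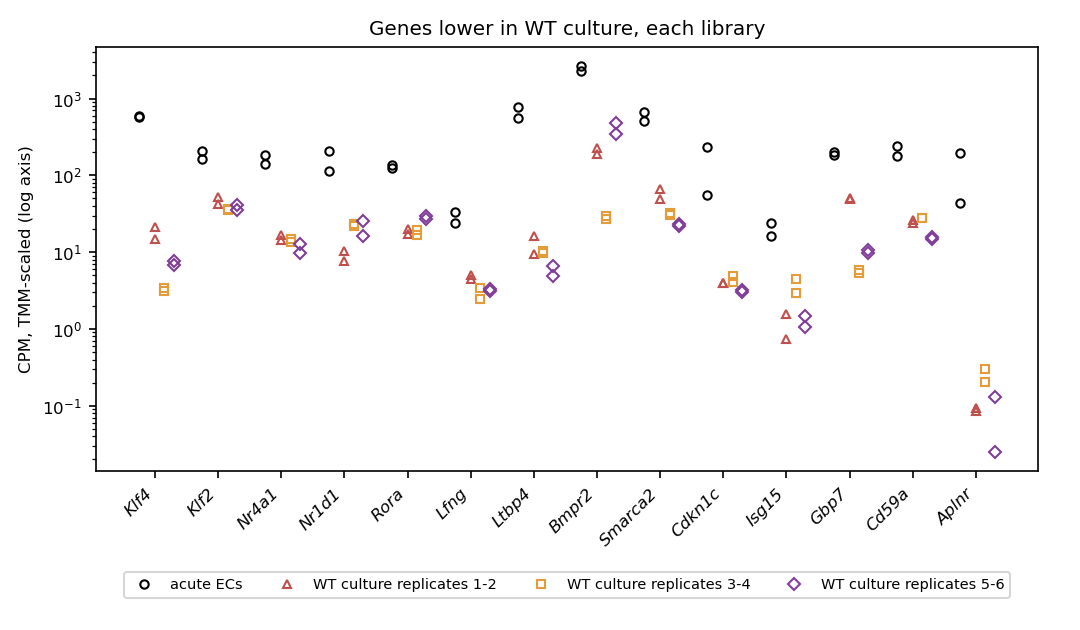
CPM (TMM-scaled, log axis) of 14 genes that were called lower, 1 point per library, with symbols as in the plot of genes higher in culture. Both acute libraries lie above all 6 cultures for each gene, and Bmpr2 has its lowest cultures in replicates 3 and 4, at 29.4 and 27.1 CPM.

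Some genes that laminar flow induces were lower in culture. Of 14 tested, 5 were called lower and 1 higher, with a median log2 fold change of -1.20 (-0.40 with the length offset). Klf4 and Klf2 are the transcription factors through which flow keeps ECs quiet. Klf4 stood at 576 and 599.6 CPM in the acute libraries and at 3.1 to 21.1 CPM (median 7.25) in culture (log2 fold change -5.96 ± 0.67 SE, adjusted p = 0.000429). Klf2 stood at 209.8 and 162 CPM and at 35.5 to 52 CPM (median 38.8), a log2 change of -2.20 ± 0.24 (SE, adjusted p = 0.000392). All cultures were below both acute libraries, at the nearest by 27.3-fold for Klf4 and 3.13-fold for Klf2. Klf2 and Klf4 are also among genes that tissue dissociation can induce within minutes, and so are the immediate early genes, of which 6 of 21 were called lower in culture and 1 higher. Nr4a1, an orphan nuclear receptor, stood at 139 and 182 CPM and at 9.76 to 16.8 CPM (median 14.1, log2 fold change -3.54 ± 0.25 SE, adjusted p = 7.62e-05). Zfp36, which destabilizes cytokine mRNAs, stood at 75 and 299 CPM and at 20.7 to 29.3 CPM (median 25.9), with a log2 change of -2.87 ± 0.40 (SE, adjusted p = 0.00103). The part of dissociation in these values was not tested. Socs3, the brake on cytokine signaling, was the immediate early gene called higher, with a log2 change of 2.29 ± 0.62 (SE, adjusted p = 0.0164). Socs3 was not called without acute replicate 1 (adjusted p = 0.0903).

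The circadian clock had 3 of 17 genes called lower and 0 higher. Its median log2 fold change was -0.83, which became -1.55 without acute replicate 1 and 0.029 without acute replicate 2. The hour at which the cells were taken is not given in the sources used here. Nr1d1, the repressor REV-ERB alpha, stood at 114 and 207 CPM in the acute libraries and at 7.58 to 25.4 CPM (median 19.1) in culture (log2 fold change -3.20 ± 0.44 SE, adjusted p = 0.00101). Its opponent Rora stood at 137 and 123 CPM and at 16.5 to 29.7 CPM (median 19.7), a log2 change of -2.58 ± 0.28 (SE, adjusted p = 0.000366). The acute libraries were above all cultures for both. Glucocorticoid-induced genes, whose ligand hydrocortisone was in the medium, had 5 of 16 called higher and 0 lower, with a median of 1.69. Sgk1, a kinase that acts on ion channels, stood at 145 and 144 CPM and at 779 to 1165 CPM (median 980.2) in culture (log2 fold change 2.72 ± 0.37 SE, adjusted p = 0.000921). Angptl4, an inhibitor of lipoprotein lipase, stood at 24.4 and 23.1 CPM and at 159 to 774 CPM (median 525), with a log2 change of 4.33 ± 0.80 (SE, adjusted p = 0.00323). Dusp1, an inducible phosphatase of the same group, was not called (191 and 248 CPM acute, 99 to 517 CPM, median 264 in culture).

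The Notch pathway, which sets arterial fate and holds ECs as stalk cells, had 4 of 17 genes called lower (2 without acute replicate 2) and 0 higher, with a median of -1.64. Lfng, an enzyme that adds sugar to Notch and tunes its ligands, stood at 24.2 and 33.6 CPM in the acute libraries and at 2.49 to 5.04 CPM (median 3.4) in culture (log2 fold change -2.98 ± 0.33 SE, adjusted p = 0.000401). The receptor Notch1 and the ligand Jag2 were called lower as well (log2 fold changes -1.71 ± 0.53 SE, adjusted p = 0.0285 and -1.60 ± 0.56 SE, adjusted p = 0.0456). Gja4, the arterial connexin 37, stood at 101 and 23.9 CPM and at 4.81 to 10.2 CPM (median 6.06), and fell by 3.21 ± 0.48 log2 units (SE, adjusted p = 0.0013). Of 12 arterial and 10 venous genes, 2 and 1 were called lower and 0 and 1 higher. Notch1 was not called without acute replicate 1, acute replicate 2 or WT replicate 1 (adjusted p = 0.21, 0.0569 and 0.0504). Jag2 was not called without acute replicate 1, acute replicate 2, WT replicate 3, WT replicate 4, WT replicate 5 or WT replicate 6 (adjusted p = 0.316, 0.0744, 0.0747, 0.076, 0.0661 and 0.0665).

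Of 18 transcription factors of the endothelium outside the study's lists, 7 were called lower (3 without acute replicate 1) and 0 higher. Mef2c, a MADS box factor upstream of the KLF genes, stood at 138 and 109 CPM in the acute libraries and at 11.6 to 53.1 CPM (median 23.1) in culture (log2 fold change -2.16 ± 0.53 SE, adjusted p = 0.0113). Mef2a, its relative, had a log2 change of -1.79 ± 0.38 (SE, adjusted p = 0.00575), and Tcf4, a bHLH factor, one of -1.07 ± 0.26 (SE, adjusted p = 0.0106). Erg, the ETS factor that defines the lineage, was not called and was chosen after its values were seen, with 539 and 586 CPM acute, 24 and 21 in WT replicates 3 and 4, 278 and 266 in 1 and 2, and 187 and 238 in 5 and 6, with an adjusted p of 0.133. Mef2c was not called without acute replicate 1 (adjusted p = 0.0744). Tcf4 was not called without acute replicate 1 (adjusted p = 0.0626), nor without WT replicate 4, where its adjusted p was 0.0261 but its log2 fold change of -0.996 fell short of the 2-fold minimum.

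The TGF-beta and BMP pathway acts on vessel maturation through secreted ligands, serine kinase receptors and SMAD factors. Of 34 genes, 3 were called higher (8.82%) and 6 lower (17.6%), against 15.4% and 7.52% in the background. The median log2 fold change was 0.071, against 0.30. All 3 genes called higher were BMP ligands. Bmp4 stood at 0.863 and 4.33 CPM in the acute libraries and at 52 to 129 CPM (median 70.4) in culture (log2 fold change 5.0 ± 0.82 SE, adjusted p = 0.00201). Bmp2 stood at 1.49 and 1.13 CPM and at 15.9 to 136 CPM (median 99.8), a log2 change of 6.01 ± 1.12 (SE, adjusted p = 0.00333). Bmp6 stood at 4.67 and 1.42 CPM and at 31.9 to 97.4 CPM (median 75.2, log2 fold change 4.48 ± 0.77 SE, adjusted p = 0.00237). No culture reached down to an acute value for any of them. Ltbp4, which stores latent TGF-beta in the matrix, stood at 777 and 552 CPM and at 4.92 to 16.4 CPM (median 9.7) in culture (log2 fold change -6.11 ± 0.42 SE, adjusted p = 6.85e-05). The type II receptor Bmpr2 stood at 2632 and 2282 CPM and at 27.1 to 474 CPM (median 209, -3.51 ± 0.90 SE, adjusted p = 0.013), and the BMP target Id3 had a log2 change of -1.28 ± 0.43 (SE, adjusted p = 0.0368). The endothelial type I receptor Acvrl1 was not called (352 and 324 CPM acute, 501 to 1418 CPM, median 596 in culture). Bmpr2 was not called without acute replicate 1 (adjusted p = 0.0581). Id3 was not called without acute replicate 1, acute replicate 2, WT replicate 3, WT replicate 4, WT replicate 5 or WT replicate 6 (adjusted p = 0.0917, 0.187, 0.0658, 0.0558, 0.0598 and 0.0548). With the length offset Id3 was not called (adjusted p = 0.18).

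Chromatin regulators leaned to the lower side, with 11 of 30 called lower (7 without acute replicate 2) and 2 higher, and a median of -1.04 (-1.27 with the length offset). Smarca2, the ATPase BRM of a nucleosome remodeler, stood at 663 and 514 CPM in the acute libraries and at 21.9 to 66.1 CPM (median 31.1) in culture (log2 fold change -3.99 ± 0.42 SE, adjusted p = 0.000332). Ezh2, the methylase of Polycomb complex PRC2, stood at 56.1 and 22.4 CPM and at 5.73 to 11.4 CPM (median 7.42), a log2 change of -2.25 ± 0.39 (SE, adjusted p = 0.00247). The 2 genes called higher were the architectural proteins Hmga1 and Hmga2, which are known from embryonic and dividing cells. Hmga1 stood at 3.26 and 4.66 CPM and at 146 to 269 CPM (median 210.3) in culture, and Hmga2 at 0.327 and 0.0693 CPM and at 44.3 to 203 CPM (median 56.4). Their log2 fold changes were 5.70 ± 0.49 (SE, adjusted p = 0.000155) and 8.93 ± 1.31 (SE, adjusted p = 0.00123), with no overlap. Splicing factors had 6 of 35 called higher (17.1%, against 15.4% in the background) and 4 lower (11.4%, against 7.52%). Fewer were called lower without acute replicate 2. The cold-shock protein Rbm3 of this list rose from 32.2 and 80.5 CPM to 356 to 566 CPM (median 459, log2 fold change 3.02 ± 0.48 SE, adjusted p = 0.00168).

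Some interferon-induced genes were lower in culture. Of 33 tested, 10 were called lower and 0 higher, and the median log2 fold change was -1.62. The count was 5 without acute replicate 1 and 6 without acute replicate 2. Isg15, a ubiquitin-like protein chosen after its values were seen, stood at 16 and 24.3 CPM in the acute libraries and at 0.74 to 4.45 CPM (median 1.53) in culture (log2 fold change -3.31 ± 0.60 SE, adjusted p = 0.00302). Gbp7, a GTPase of antimicrobial defence, stood at 182 and 202 CPM and at 5.31 to 51.4 CPM (median 10.2), a log2 change of -3.12 ± 0.84 (SE, adjusted p = 0.0165), and its relative Gbp3 had one of -1.94 ± 0.66 (SE, adjusted p = 0.0399). The groups did not overlap for these 3 genes. Together the list took 0.248% and 0.302% of protein-coding TPM in the acute libraries, 0.217% to 0.255% in WT replicates 1 to 4, and 0.0852% and 0.0861% in WT replicates 5 and 6 (exact permutation test, two-sided p = 0.143, adjusted 0.191). Gbp7 was not called without acute replicate 1 or acute replicate 2 (adjusted p = 0.0618 and 0.0713). Gbp3 was not called without acute replicate 1, acute replicate 2, WT replicate 3, WT replicate 4 or WT replicate 6 (adjusted p = 0.135, 0.137, 0.0669, 0.0643 and 0.0529).

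The interferon-stimulated response element was searched on both strands as GAAA followed by GAAA after any 2 bases and was found in the 250 bases before the start of 13 of 26 genes of this list (50%) and of 3.04% of all promoters. The windows of Isg15, on the minus strand at chr4:156200819-156201068, and of Gbp3, on the plus strand at chr3:142559794-142560043, show overlapping matches in capitals, which in Gbp3 are in the reverse complement.
Isg15: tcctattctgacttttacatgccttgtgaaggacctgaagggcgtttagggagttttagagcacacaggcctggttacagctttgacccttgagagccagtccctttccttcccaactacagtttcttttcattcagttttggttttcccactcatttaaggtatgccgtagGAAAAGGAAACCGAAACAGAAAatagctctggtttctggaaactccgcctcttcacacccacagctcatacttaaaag
Gbp3: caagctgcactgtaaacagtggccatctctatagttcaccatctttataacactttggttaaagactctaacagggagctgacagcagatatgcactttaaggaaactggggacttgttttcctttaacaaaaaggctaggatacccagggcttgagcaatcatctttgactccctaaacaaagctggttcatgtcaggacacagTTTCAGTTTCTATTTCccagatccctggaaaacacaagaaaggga

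Of 18 genes of MHC class I and antigen processing, which interferon also induces, 3 were called higher (16.7%, close to the background of 15.4%) and 0 lower, and 2 and 2 with the length offset. Their median log2 fold change was 0.50, which became 0.0272 with the length offset, 0.26 without acute replicate 1 and 0.99 without acute replicate 2. B2m, the light chain of MHC class I, was not called, at 334 and 383 CPM acute and 456 to 919.8 CPM (median 720.2) in culture. The nonclassical gene H2-T22 stood at 1.48 and 2.95 CPM and at 28.1 to 48.9 CPM (median 39.4, log2 fold change 4.17 ± 0.45 SE, adjusted p = 0.000359), and it has close relatives with which reads can be shared. Psme2, of the immune proteasome activator, was called higher on counts, but its value was -0.41 with the length offset. The complement regulator Cd59a, which protects cells from lysis, fell from 238 and 180 CPM to 14.6 to 27.7 CPM (median 25.2), a log2 change of -3.21 ± 0.31 (SE, adjusted p = 0.000229).

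At the membrane, 8 of 32 G protein-coupled receptors were called higher (4 without acute replicate 1, 5 without acute replicate 2) and 2 lower. Next to the apelin receptor, the adhesion receptor Adgre5 (CD97) was lower, at 467 and 229.6 CPM acute and 15.6 to 50.8 CPM (median 35.9) in culture (log2 fold change -3.40 ± 0.48 SE, adjusted p = 0.00103). Lpar6, a receptor for lysophosphatidic acid, stood at 42.8 and 40.2 CPM and at 116 to 309 CPM (median 196), a log2 change of 2.33 ± 0.49 (SE, adjusted p = 0.00566). Ion channels and connexins had 4 of 34 called higher (11.8%) and 4 lower (11.8%), which with the length offset became 2 and 7. Orai1, the pore of store-operated calcium entry, stood at 12.1 and 8.06 CPM and at 54.6 to 131 CPM (median 69.4, log2 fold change 3.07 ± 0.53 SE, adjusted p = 0.00233), and Gjc1, connexin 45, fell from 67.9 and 53 CPM to 11.3 to 13.9 CPM (median 11.7, -2.33 ± 0.22 SE, adjusted p = 0.00023).

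The glycocalyx, the sugar coat of the vessel wall, had 5 of 25 genes called higher (20%) and 2 lower (8%). Emcn stood at 201 and 242 CPM in the acute libraries and at 1061 to 2859 CPM (median 1450) in culture (log2 fold change 2.97 ± 0.59 SE, adjusted p = 0.00432). Sdc4, a heparan sulfate proteoglycan of focal adhesions, stood at 3.64 and 1.32 CPM and at 75.1 to 134 CPM (median 83.1), a log2 change of 5.26 ± 0.57 (SE, adjusted p = 0.000378). St6gal1, which adds sialic acid, fell from 186 and 175 CPM to 21.1 to 44.4 CPM (median 27.9, log2 fold change -2.55 ± 0.32 SE, adjusted p = 0.000669). None of the 3 overlapped. Of 24 cholesterol genes, 6 were called higher (25%) and 2 lower (8.33%), and of 15 genes of fatty acid synthesis, 5 (33.3%) and 2 (13.3%). Of 17 genes of fatty acid oxidation, 1 was called in each direction (5.88%). The background shares were 15.4% higher and 7.52% lower. Fads3, a desaturase relative, rose from 4.67 and 3.02 CPM to 79.7 to 199 CPM (median 153, log2 fold change 5.21 ± 0.60 SE, adjusted p = 0.000479), and Acsl3, which activates fatty acids at lipid droplets, fell from 59.7 and 80 CPM to 8.73 to 21.1 CPM (median 10.1, -2.38 ± 0.40 SE, adjusted p = 0.00206).

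Of 2305 lncRNAs tested, 14 were called higher and 59 lower. Of all 17128 genes tested, 12.3% were called higher and 8.33% lower, so that lncRNAs were called less often in both directions. The median log2 fold change of the lncRNAs was -1.48, and their values also depend on how a library treats RNA without poly(A) tails. Snhg6, a host of small nucleolar RNAs, stood at 0.615 and 0.433 CPM in the acute libraries and at 4.93 to 16.7 CPM (median 6.47) in culture (log2 fold change 4.12 ± 0.76 SE, adjusted p = 0.00311). Malat1, an abundant RNA of nuclear speckles, was called lower (5570 and 6134 CPM acute, 221 to 2047 CPM, median 1133 in culture, log2 fold change -2.41 ± 0.76 SE, adjusted p = 0.030). Malat1 was not called without acute replicate 1, acute replicate 2, WT replicate 5 or WT replicate 6 (adjusted p = 0.0963, 0.112, 0.0521 and 0.0535). With the length offset Malat1 was not called (adjusted p = 0.339).

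Several groups had fewer calls. Of 31 axon guidance genes, 3 were called higher and 1 lower, and the repellent ligand Sema3a stood at 0.0523 and 1.32 CPM in the acute libraries and at 14.1 to 33.3 CPM (median 27.7) in culture (log2 fold change 5.22 ± 1.14 SE, adjusted p = 0.00672). Among genes of mesenchymal transition, S100a4 was higher, with a log2 change of 2.87 ± 0.62 (SE, adjusted p = 0.0066), and the repressor Zeb1 lower (-1.62 ± 0.41 SE, adjusted p = 0.0118), of 13 tested. Feedback genes of ERK signaling had Dusp5 higher (8.32 ± 1.43 SE, adjusted p = 0.00236) and Spry1 lower (-1.65 ± 0.45 SE, adjusted p = 0.0172) of 15. No gene of the lymphatic and sinusoidal list was called, of 11 tested, and 2 and 3 had an adjusted p under 0.05 in edgeR's test in the higher and the lower direction. Zeb1 was not called without acute replicate 1 (adjusted p = 0.115). Spry1 was not called without acute replicate 1 or acute replicate 2 (adjusted p = 0.0505 and 0.108).

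The direction of the group medians was mostly shared by the 3 culture experiments when each was set against the same 2 acute libraries. The medians of YAP and TEAD targets were 1.67, 2.0 and 3.17 for replicates 1 and 2, 3 and 4, and 5 and 6, in that order. Those of tip cell genes were 2.93, 3.18 and 3.17, and those of mitochondrially encoded subunits -4.62, -4.35 and -4.88. Larger gaps were seen for collagens, at 2.35, 0.21 and 0.87, for Notch genes, at -1.24, -2.77 and -1.14, and for interferon-induced genes, at -0.93, -2.03 and -2.42. The 3 contrasts share their acute libraries. Isolation method and mouse genotype set replicates 1 and 2 apart from the others, and facility and read length set replicates 3 and 4 apart, so that within these 3 experiments they cannot be told apart from other differences between experiments.

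**Figure D5:**
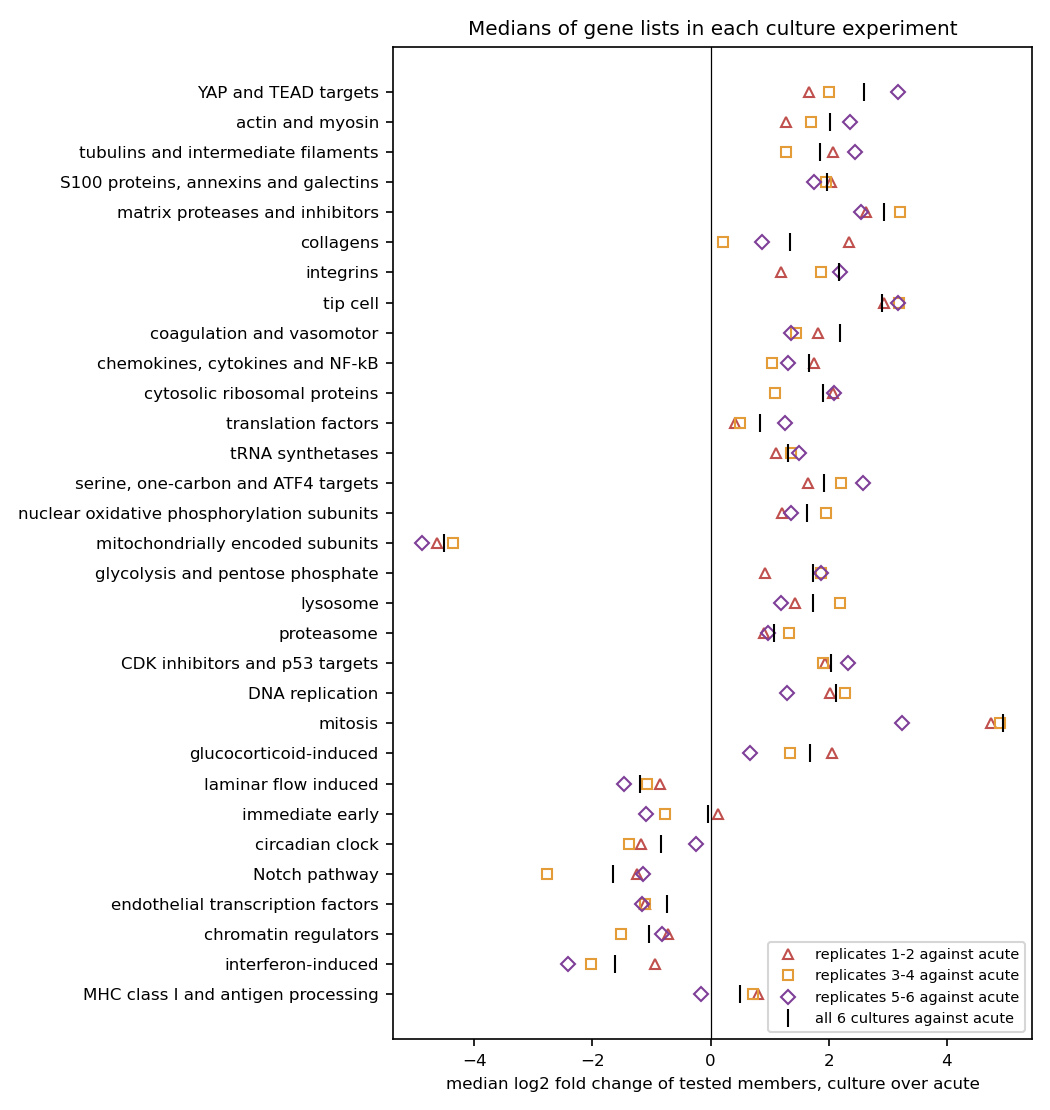
Median log2 fold change (culture over acute) of the tested members of 31 gene groups, for each culture experiment against the same 2 acute libraries (symbols) and for all 6 cultures (black tick). The YAP, tip cell, ribosomal and tRNA synthetase groups lie right of 0 and the mitochondrially encoded, Notch and interferon groups left of 0 in each experiment.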

How the data were processed

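The data are 2 RNA-seq libraries of ECs acutely isolated from adult brain and 6 of WT cultures. The authors trimmed adapters where needed and quantified transcripts with Salmon 0.14.0 against GENCODE M21, on the mm10 genome per the labels. Each deposited file gives an estimated count and a TPM value per transcript. TPM is a share of all transcripts and was dominated by a few short RNAs in all libraries but WT replicates 3 and 4. Here both were summed per gene symbol and counts were rounded. Abundance is printed as CPM with TMM factors (edgeR 4.0.16, R 4.3.3, limma 3.58.1), and TPM as a share within nuclear protein-coding genes.

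Genes passing filterByExpr were tested with edgeR's quasi-likelihood test, cultures against acute ECs without covariates, with Benjamini-Hochberg adjustment over all 17128 genes. Calls needed an adjusted p under 0.05, a change over 2-fold and a deposited TPM of at least 5 in every library of the higher group. Standard errors are the log2 fold change divided by the square root of its F. The test was checked on simulated counts with the dispersion of the data. There 2% of genes changed by 2.5-fold, 20% by 4-fold, 48% by 8-fold and 86% by 16-fold were recovered (50 each among 17128), with 1 false call. Simulated libraries were drawn independently and called without the TPM minimum, whereas the cultures are 3 pairs of wells. The false calls in such counts therefore cannot give the error rate in these data. Shares of libraries were compared by an exact permutation test.

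The members and gene lists were chosen with earlier results of these data known. Lists leave out genes of the BBB and pan-EC lists (279 and 154 genes), except marker lists. Genes were named by a rule: in each list the 3 called genes in each direction with the highest mean TPM in the higher group and the most abundant uncalled one, then the 12 called genes in each direction with the largest shift in mean TPM, the 10 with the largest fold change among genes at 5 TPM or more in every library, and 6 lncRNAs. TPM was rescaled to nuclear protein-coding genes for this ranking. Ajuba, Cdh5, Cdk1, Chac1, Erg, Gdf15, Isg15, Pecam1 and Top2a were added after their values were seen. Some genes that the rule names are not reported here.

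Alternatives covered scaling, including DESeq2 1.42.0, the count filter, the TPM minimum, transcript length, the libraries in the fit and the replicate number as a block. Promoter sequences are those of RefSeq on GRCm38.p6. The other RNA-seq libraries and the ATAC-seq libraries of the series were not used here. The exceptions were the fit of all 14 RNA-seq libraries and the levels in GFP-negative cells.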

Additional observations from a re-analysis of the deposited data

Results flagged for a closer look

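Among the genes described, 3 had 1 culture apart from the other 5 by Dixon's test, which chance flags in about 1 of 20 groups. Gjc1, connexin 45, had its highest culture at 13.9 CPM where the 6 cultures ranged from 11.3 CPM, against 67.9 and 53 CPM in the acute libraries. Timp3, the metalloproteinase inhibitor, had its highest culture at 635 CPM with a lowest of 425 CPM, against 1143 and 1274 CPM. S100a4, a calcium-binding protein, had its highest culture at 13.5 CPM with a lowest of 3.39 CPM, against 0.942 and 0.936 CPM. In Gjc1 and Timp3, which were called lower, the culture that stands apart is the one nearest to the acute libraries, and in S100a4, which was called higher, it is the one furthest from them.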

How the results depend on the processing

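The number of genes called higher, 2103, and lower, 1426, rested most on the TPM minimum: without it 3729 and 3609 were called. With WT replicates 3 and 4 as the only cultures the counts were 3227 and 2199, and summing the 2 wells of an experiment left 830 called lower. When a single library was left out, 1603 to 2114 were called higher and 1202 to 1390 lower. Using TPM rescaled to nuclear protein-coding genes, an alternative chosen after seeing the data, gave 2491 and 1903, DESeq2 2119 and 1695, the length offset 1960 and 1854, and scaling by library totals 2180 and 1269. The cause of these differences was not tested, other than that the TPM minimum and the summed wells leave fewer genes or samples by construction. The replicate number as a block, on replicates 1 and 2 of both groups, gave 2263 and 1813. Deviations of same-numbered libraries from their group means had r = -0.058 and 0.062 across genes. These values cannot decide whether the numbers pair the samples. Deviations of the 2 acute libraries from their own mean are exact opposites, and WT replicates 1 and 2 are wells of 1 experiment. As a share of counts in place of TPM, collagens were 2.01 times, basement membrane genes 1.41 times and MHC class I genes 1.43 times their acute share, where the TPM shares were 0.672, 0.740 and 0.876 times, and none of these passed the exact permutation test. DNA replication genes were 2.07 times their acute share of counts, with an exact two-sided p of 0.0357, the smallest that 2 against 6 libraries allow, against 0.179 for TPM. With the wells of each experiment averaged, an alternative chosen after seeing the data, the shares of ribosomal proteins (2.81 times the acute share), glycolysis genes (4.74 times), S100 proteins and annexins (6.29 times) and lysosomal genes (2.72 times) no longer had a p under 0.05, since 3 experiments against 2 libraries allow no exact p below 0.1. Of 157 genes described, 137 were called in the main fit. Of these, 19 lost their call with wells summed, among them Myh10, Itga1, Il1r1, Pfkm, Zeb1 and Spry1. Some of the 137 lost it without acute replicate 1 or acute replicate 2. Among called genes the direction turned for Psme2 (-0.412 with the length offset). Hspg2, which was not called, fell to -1.88 with WT replicates 3 and 4 alone. Other uncalled genes changed sign with the length offset, among them Col4a1 (1.10 to -0.686) and Amotl2 (1.23 to -0.0991). In the simulated counts at the dispersion of these libraries, 20% of the 4-fold changes were recovered. Far fewer genes changed there than were called here, so that share cannot be read as the power of the test in these data.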
